A study of Mus musculus with 18 samples.

Results

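The genes described are 4 tissue inhibitors of metalloproteinases, Timp1, Timp2, Timp3 and Timp4, and 6 proteases of the ADAMTS family (a disintegrin and metalloproteinase with thrombospondin motifs), Adamts1, Adamts2, Adamts4, Adamts5, Adamts9 and Adamts15. They were taken by symbol from the 55401 Ensembl gene IDs of the count tables, and each of the 10 symbols matched 1 ID. All 10 passed the filter on low counts that left 27525 genes, Timp4 with no more than 25 counts in any library.

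RNA was sequenced from stromal cells carrying gp38 (podoplanin) that flow cytometry had sorted out of the salivary glands of wild-type Balb/c mice aged 8 to 12 weeks. In infected mice the submandibular gland received between 100000000 and 1000000000 plaque-forming units of replication-defective adenovirus Ad5 through its duct, a procedure that leads to tertiary lymphoid structures in the gland. The 6 groups of 3 libraries are uninfected glands (hour 0, replicates 10 to 12) and glands taken at hour 3 (replicates 4 to 6), day 1 (replicates 13 to 15), day 2 (replicates 16 to 18), day 8 (replicates 1 to 3) and day 23 (replicates 7 to 9) after Ad5. Per the sample titles each library has its own replicate number, and the titles do not say whether it comes from a single mouse or several. No group was cannulated without virus, so the procedure and the virus cannot be told apart.

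TIMPs are small secreted proteins that block the active site of matrix metalloproteinases (MMPs), and Timp3 also blocks several ADAM and ADAMTS enzymes and is held in the extracellular matrix. Adamts1, Adamts4, Adamts5, Adamts9 and Adamts15 belong to the proteoglycan-cleaving branch of the ADAMTS family, whose substrates include aggrecan and versican, while Adamts2 removes the amino-terminal propeptide of fibrillar procollagens. In connective tissue, fibroblasts are a main source of these enzymes and of their inhibitors, so their balance bears on how matrix is kept or remodelled.

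Levels are in CPM, a gene's count relative to the scaled total count of its library. Total counts ran between 4398234 and 15234431 per library. The libraries with replicate numbers 10 to 18 (hour 0, day 1 and day 2) listed between 28124 and 42342 genes with a count, and those numbered 1 to 9 (hour 3, day 8 and day 23) between 16488 and 21542. Counts on 1502 olfactory, vomeronasal and taste receptor genes, which stroma is not known to use, were likewise higher in replicates 10 to 18, at 0.549 to 3.36 counts per kb of exon per 10000000 nuclear counts, against 0.0159 to 0.0611 in replicates 1 to 9. Comparisons of hour 3, day 8 or day 23 with hour 0 cross these sets, so the set and the time cannot be told apart there, and comparisons within a set are given beside them. Every gene described here other than Timp4 stood at least 36.9 times above the receptor-gene rate in each library of replicates 10 to 18. The 8 fibroblast markers were detected in every group, and 7 acinar and duct secretory markers summed higher than they did in every library at hour 0, hour 3, day 8 and day 23, with 30780 to 227200 CPM for secretory markers against 14340 to 34710 CPM for fibroblast markers. On days 1 and 2 the secretory markers summed to between 219.5 and 3162 CPM and the fibroblast markers to between 7132 and 13240 CPM. In sorted bulk cells, fewer cells of a type and less RNA per cell cannot be told apart.

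Timp1 and Adamts1 are shown with their start regions because each gave the largest share of its family's RNA per kb of exon at hour 3, day 1 and day 2. Timp1 (ENSMUSG00000001131) lies on the plus strand of chromosome X at 20870166 to 20874735 in GRCm38 (mm10), within Syn1 on the other strand and with no shared exon. Adamts1 (ENSMUSG00000022893) lies on the minus strand of chromosome 16 at 85793827 to 85803113, with Adamts5 (85856173 to 85901828, minus strand) 53.1 kb away on the same chromosome. The sequences run 5′ to 3′ over the 250 bases before and the first 50 bases of each gene, from RefSeq (GRCm38.p6), and cover chrX:20869916-20870215 on the plus strand and chr16:85803064-85803363 on the minus strand.
Timp1: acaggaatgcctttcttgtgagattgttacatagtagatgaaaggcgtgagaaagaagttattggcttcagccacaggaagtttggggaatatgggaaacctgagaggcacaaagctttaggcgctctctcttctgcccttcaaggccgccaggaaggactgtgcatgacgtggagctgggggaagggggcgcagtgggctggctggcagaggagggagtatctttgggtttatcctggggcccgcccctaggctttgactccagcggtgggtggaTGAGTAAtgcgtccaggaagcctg
Adamts1: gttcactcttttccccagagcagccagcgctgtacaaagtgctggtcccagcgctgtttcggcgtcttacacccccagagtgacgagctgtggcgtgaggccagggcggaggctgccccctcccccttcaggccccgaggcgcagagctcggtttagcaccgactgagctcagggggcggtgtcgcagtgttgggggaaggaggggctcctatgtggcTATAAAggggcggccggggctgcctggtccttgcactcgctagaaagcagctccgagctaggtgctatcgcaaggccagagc
Capitals mark TGAGTAA in Timp1, which starts 27 bases into the gene, and TATAAA in Adamts1, which starts 32 bases before it. The first is a variant of the AP-1 motif TGANTCA, and it was searched for after the Timp1 sequence had been seen. Starts were found for 7 of the 10 genes (Timp1, Timp2, Timp3, Timp4, Adamts1, Adamts2 and Adamts9), and these were searched on both strands for the AP-1 motif TGANTCA, an NF-kB motif, the cyclic AMP response motif TGACGTCA, the TATA motif TATAAA and TGAGTAA. The Timp1 and Adamts1 matches were the only ones in the 7 windows. Of 32851 RefSeq windows of the same length, 2.68% held TGAGTAA, 13.6% TATAAA, 7.81% TGANTCA, 4.79% the NF-kB motif and 1.79% TGACGTCA. A match is a description of these letters and not a site of binding.

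Levels below are CPM scaled by the trimmed mean of M-values (TMM), and differences are log2 fold changes with their SE and adjusted p from edgeR's quasi-likelihood test over all 27525 genes. A gene is said to rise or fall where the adjusted p is under 0.05. Each of the 10 genes differed among the 6 groups in the edgeR F test, and so did 83.9% of all genes tested.

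Timp1 encodes the soluble inhibitor best known as induced by inflammatory signals. It was nearly silent in uninfected glands, at 5.32, 6.00 and 7.94 CPM. It stood at 724, 826 and 557 CPM at hour 3, at 1035, 571 and 930 CPM on day 1, and at 326, 272 and 445 CPM on day 2. On day 8 it was back at 12.4, 7.47 and 9.30 CPM, and on day 23 at 2.32, 20.9 and 6.63 CPM. All 9 libraries of hour 3, day 1 and day 2 were far above every other library, and the day 8 and day 23 libraries overlapped those of hour 0. Against hour 0 the rise was 6.76 ± 0.44 (log2 ± SE) at hour 3 (edgeR, adjusted p = 4.12e-13), 7.03 ± 0.45 on day 1 (edgeR, adjusted p = 6.45e-13) and 5.75 ± 0.42 on day 2 (edgeR, adjusted p = 3.43e-11). Day 1 and day 2 share a set of libraries with hour 0, and hour 3 does not. Day 2 was lower than day 1 with a log2 difference of -1.28 ± 0.34 (edgeR, adjusted p = 0.00792; with DESeq2 adjusted p = 0.110, and between 4.09e-14 and 0.110 over 15 alternatives). Within the other set, day 8 was lower than hour 3 with a log2 difference of -6.17 ± 0.43 (edgeR, adjusted p = 1.75e-12). Day 23 and day 8 averaged 9.93 ± 9.70 and 9.73 ± 2.50 CPM (SD, n = 3 each), and the mean of day 23 rests on replicate 8. Without that library day 23 was lower than day 8, with a log2 difference of -1.18 (edgeR, adjusted p = 0.0476), which is the only one of 16 alternatives under 0.05, the others reaching an adjusted p of up to 1.00.

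**Figure D1:**
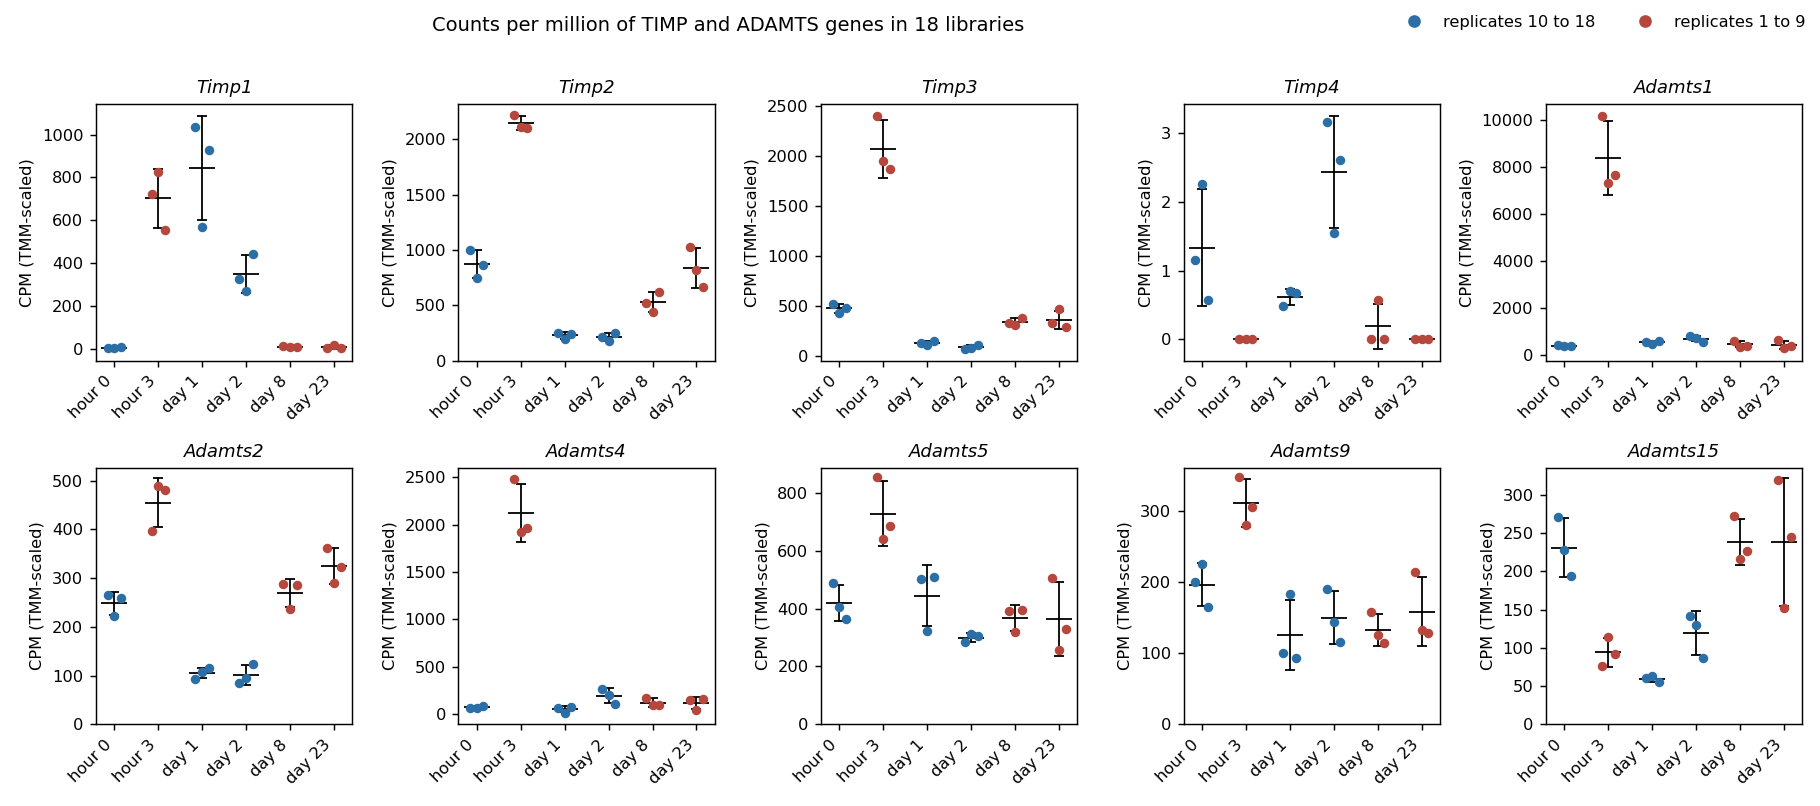
Levels in TMM-scaled CPM (y axis, linear, its own range for each gene) of the 10 genes in the 18 libraries by time (x axis), with 1 point per library, the group mean as a horizontal line and 1 SD as bars (n = 3). The hour 3 points stand above the others for Timp2, Timp3, Adamts1, Adamts2, Adamts4, Adamts5 and Adamts9, a position that depends on the scaling for Timp2, Adamts2, Adamts5 and Adamts9, while Timp1 stays high to day 2 and Adamts15 is lowest at hour 3 and day 1.

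Timp2 and Timp3 took a course unlike that of Timp1. Timp2, which inhibits MMPs and also takes part in activating pro-MMP2 together with Mmp14, was the most abundant TIMP in uninfected glands, at 1001, 751 and 868 CPM. It stood at 2219, 2114 and 2107 CPM at hour 3, at 252, 194 and 239 CPM on day 1, and at 217, 176 and 250.3 CPM on day 2. On day 8 it stood at 521, 439 and 622 CPM and on day 23 at 1031, 821 and 664 CPM. The hour 3 libraries lay above and the day 1, day 2 and day 8 libraries below every uninfected library. Against hour 0 Timp2 fell, with log2 differences of -1.93 ± 0.19 on day 1 (edgeR, adjusted p = 4.06e-09), -2.03 ± 0.19 on day 2 (edgeR, adjusted p = 4.11e-09) and -0.73 ± 0.19 on day 8 (edgeR, adjusted p = 0.00395). At hour 3 it rose by 1.30 ± 0.19 (edgeR, adjusted p = 1.92e-06), a call that was lost when libraries were scaled by their totals alone (0.12, adjusted p = 0.573; between 1.04e-13 and 0.573 over 15 alternatives). Day 23 and hour 0 averaged 839 ± 184 and 873 ± 125 CPM (SD, n = 3 each), a log2 difference of -0.06 ± 0.19 (edgeR, adjusted p = 0.829).

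Timp3, the matrix-bound inhibitor with the widest reach over ADAM and ADAMTS enzymes, stood at 526, 438 and 480.2 CPM in uninfected glands. It stood at 2404, 1947 and 1870.0 CPM at hour 3, at 134, 115 and 159 CPM on day 1, and at 78.6, 88.5 and 116 CPM on day 2. On day 8 it stood at 338, 318 and 387 CPM and on day 23 at 336, 469.9 and 297 CPM. Each hour 3 library lay above every other library, and each day 1 and day 2 library below every other. The rise at hour 3 was 2.11 ± 0.19 (edgeR, adjusted p = 4.92e-10), the fall on day 1 was -1.82 ± 0.19 (edgeR, adjusted p = 1.37e-08) and on day 2 -2.35 ± 0.20 (edgeR, adjusted p = 3.71e-10), in log2 against hour 0. On day 8 Timp3 fell, with a log2 difference of -0.47 ± 0.19 (edgeR, adjusted p = 0.0428), a call that was lost when any 1 of the 6 libraries compared was left out and held in 8 of 15 alternatives (adjusted p between 0.000601 and 0.278). With 1 of these libraries left out, 23.3% to 40.9% of all genes tested were called, against 43.9% in the main fit. Timp3 shares 1733 bases of exon with Syn3 on the other strand, and Syn3 averaged no more than 9.81 CPM in any group.

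With TMM scaling, the fibroblast, mural, epithelial and secretory marker sums moved with Timp2 and Timp3 at hour 3, day 1 and day 2. The epithelial markers summed to 810.3 to 1127 CPM at hour 3, against 340.7 to 545.3 CPM at hour 0. On days 1 and 2 they summed to 103.2 to 253.3 CPM. The secretory markers summed to 71860 to 117200 CPM at hour 3, against 30780 to 70080 CPM at hour 0. Not every list moved this way. The 4 glial markers summed to 61.55 to 69.08 CPM at hour 3, against 77.1 to 92.28 CPM at hour 0. The sums were not repeated with library totals, which moved the median of all genes at hour 3 by -1.16 in log2. The fibroblast markers summed to 32740 to 34710 CPM at hour 3 and 7132 to 9455 CPM on day 1, against 16010 to 18940 CPM at hour 0. Pdgfra, a receptor that marks fibroblasts, averaged 182 ± 23.6 CPM on day 1 and 422 ± 68.8 CPM on day 2, against 1922 ± 145 CPM at hour 0 (SD, n = 3 each). Other fibroblast markers did not all follow Pdgfra. Pdpn, which encodes gp38, averaged 338 ± 121 CPM on day 1 and 190 ± 12.1 CPM on day 2, against 60.4 ± 6.09 CPM at hour 0. Col1a1 averaged 3237 ± 912 CPM on day 1 and 4896 ± 1088 CPM on day 2, against 5063 ± 419 CPM at hour 0. At hour 3 Pdpn averaged 827.1 ± 100.4 CPM, its highest group mean, Pdgfra 2530 ± 150.2 CPM and Col1a1 8024 ± 783.3 CPM. The 5 mural-cell markers, all detected, summed to 108.5 to 179 CPM on days 1 and 2, against 746 to 1160 CPM at hour 0, and to 1733 to 2028 CPM at hour 3. On day 8, when the Timp2, Timp3 and Adamts9 falls were called, 6 epithelial markers summed to 2407 to 2904 CPM, against 341 to 545 CPM at hour 0. The 5 blood endothelial markers summed to 104 to 125 CPM on day 8, against 22.6 to 32.9 CPM at hour 0. The 5 macrophage and monocyte markers summed to 90.0 to 102 CPM on day 8, against 12.1 to 18.9 CPM at hour 0. All markers of the 3 lists were detected. The part of these shifts in the changes of the TIMP and ADAMTS genes was not tested.

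Timp4, known mainly from heart and fat, was close to absent. It had 12, 20 and 7 counts in the uninfected libraries, 6, 8 and 9 on day 1, and 21, 13 and 25 on day 2. In these 9 libraries that was 1.03 to 2.73 times the count that the receptor-gene rate gives for a gene of its length. It had no count at hour 3 or on day 23, and 0, 7 and 0 counts on day 8. With 3 counts over the group as the floor, its level was at least 9.58-fold lower at hour 3 and at least 8.86-fold lower on day 23 than at hour 0 (edgeR, adjusted p = 0.00411 and 0.0121), and both comparisons cross the sets of libraries. The receptor-gene rate gives 20.1 of the 39 counts at hour 0, and net of these the bounds are 4.64-fold and 4.29-fold. The day 23 call was lost after subtraction of the receptor-gene rate (edgeR, adjusted p = 0.0743) and without day 23 replicate 8 (edgeR, adjusted p = 0.0613), and held in 10 of 12 alternatives. The lowest adjusted p was 0.00167. On day 8 the log2 difference from hour 0 was -2.73 ± 1.20 (edgeR, adjusted p = 0.0666), and it was called in 5 of 12 alternatives, with adjusted p-values between 0.00211 and 0.395. Timp4 shares 90 bases of exon with Syn2 on the other strand, which averaged 0.325 to 3.79 CPM over the groups, and reads of the pair cannot be told apart where the strand setting of the counting is not given.

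Among the proteases, Adamts1 and Adamts4 showed a short peak at hour 3. Adamts1, a versican- and aggrecan-cleaving enzyme, stood at 411, 370.0 and 380 CPM in uninfected glands and at 10190, 7308 and 7649 CPM at hour 3. It stood at 563, 483 and 602 CPM on day 1, at 804, 732 and 572 CPM on day 2, at 603, 356 and 408 CPM on day 8, and at 643, 296 and 391 CPM on day 23. No library outside hour 3 was above 804 CPM. The rise at hour 3 was 4.44 ± 0.26 in log2 (edgeR, adjusted p = 5.19e-14), and within the same set of libraries day 8 was lower than hour 3 with a log2 difference of -4.20 ± 0.26 (edgeR, adjusted p = 1.86e-13). Adamts1 was also higher on day 2 than at hour 0, by 0.86 ± 0.23 (edgeR, adjusted p = 0.00857), with every day 2 library above every uninfected one. On day 1 the log2 difference from hour 0 was 0.51 ± 0.23 (edgeR, adjusted p = 0.117), and with no filter on low counts 0.69 (edgeR, adjusted p = 0.000738).

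Adamts4, an aggrecanase, stood at 69.4, 69.2 and 85.3 CPM in uninfected glands and at 2479, 1927 and 1963 CPM at hour 3. It stood at 70.5, 18.3 and 81.4 CPM on day 1, at 269.7, 206 and 113 CPM on day 2, at 177, 97.2 and 94.2 CPM on day 8, and at 153, 45.1 and 158 CPM on day 23. The hour 3 libraries were again apart from the rest, and on day 1 replicate 14 was well under its companions. The rise at hour 3 was 4.83 ± 0.45 in log2 (edgeR, adjusted p = 5.13e-10), and day 8 was lower than hour 3 with a log2 difference of -4.11 ± 0.43 (edgeR, adjusted p = 7.32e-09). A second rise was called on day 2, by 1.39 ± 0.39 against hour 0 (edgeR, adjusted p = 0.0127) and by 1.79 ± 0.40 against day 1 (edgeR, adjusted p = 0.00181). The day 2 call against hour 0 was lost without day 2 replicate 16 (log2 1.08, edgeR, adjusted p = 0.0796, the highest of 15 alternatives, whose lowest was 1.73e-10).

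Adamts15, another proteoglycan-cleaving member, moved the other way. It stood at 271, 229 and 194 CPM in uninfected glands, at 75.7, 114 and 92.2 CPM at hour 3, at 60.7, 62.8 and 55.2 CPM on day 1, and at 142, 130.4 and 87.0 CPM on day 2. On day 8 it stood at 273, 216 and 227 CPM and on day 23 at 319, 152 and 245 CPM. Every library of hour 3, day 1 and day 2 was under the lowest uninfected library, and the day 8 and day 23 libraries overlapped them. Against hour 0 it fell, with log2 differences of -1.30 ± 0.22 at hour 3 (edgeR, adjusted p = 2.04e-05), -1.96 ± 0.22 on day 1 (edgeR, adjusted p = 5.84e-08) and -0.95 ± 0.22 on day 2 (edgeR, adjusted p = 0.00215). The day 2 call was lost when libraries were scaled by their totals (log2 -0.58, edgeR, adjusted p = 0.120, the highest of 15 alternatives, whose lowest was 4.06e-06). Day 2 was higher than day 1 by 1.01 ± 0.22 (edgeR, adjusted p = 0.00165), and day 8 was higher than hour 3 by 1.34 ± 0.22 (edgeR, adjusted p = 1.39e-05).

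Adamts5 and Adamts9 varied least, with a highest group mean 2.43 and 2.48 times the lowest. Adamts5, the other main aggrecanase, stood between 257 and 509 CPM in the libraries outside hour 3 and at 858, 643 and 688 CPM at hour 3. At hour 3 its log2 difference from hour 0 was 0.79 ± 0.21 (edgeR, adjusted p = 0.00268), but -0.39 (edgeR, adjusted p = 0.113) when libraries were scaled by their totals, against adjusted p-values down to 6.55e-06 over 15 alternatives. None of the later groups differed from hour 0 at the threshold, and the day 1 difference was 0.08 ± 0.21 (edgeR, adjusted p = 0.825). On day 2 the Adamts5 libraries, at 284 to 312 CPM, all lay below the uninfected ones, at 366 to 489 CPM. The day 2 difference was -0.49 ± 0.21 (edgeR, adjusted p = 0.130), and it was called in 2 of 15 alternatives. The day 8 and day 23 differences were each called in 1 of 15. Adamts9, which cleaves proteoglycans and fibronectin, stood at 348, 281 and 306 CPM at hour 3, against 199.7, 226 and 165 CPM at hour 0. Its hour 3 difference was 0.67 ± 0.23 (edgeR, adjusted p = 0.0172), but -0.52 with scaling by library totals (edgeR, adjusted p = 0.0608), and it was under 0.05 in 9 of 15 alternatives, the adjusted p lying between 0.000316 and 0.0825. Its falls on day 1, of -0.65 ± 0.23 (edgeR, adjusted p = 0.0429), and on day 8, of -0.57 ± 0.23 (edgeR, adjusted p = 0.0485), held in 5 of 16 and 10 of 15 alternatives, with adjusted p-values between 0.000814 and 0.213 and between 0.00402 and 0.171. On day 1 replicate 14 (183 CPM) overlapped the uninfected libraries and replicates 13 and 15 (100.1 and 93.5 CPM) did not.

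Adamts2, the procollagen N-proteinase, followed Timp2 and Timp3. It stood at 265, 222 and 258 CPM at hour 0, at 397, 488 and 479.8 CPM at hour 3, at 93.5, 108 and 115 CPM on day 1, and at 83.8, 94.5 and 124 CPM on day 2. On day 8 it stood at 287, 237 and 286 CPM and on day 23 at 362, 289.5 and 322 CPM. Each day 1 and day 2 library lay below every library of the other groups. The falls were -1.24 ± 0.17 on day 1 (edgeR, adjusted p = 1.45e-06) and -1.30 ± 0.17 on day 2 (edgeR, adjusted p = 1.22e-06), in log2 against hour 0, both within 1 set of libraries. The hour 3 difference was 0.87 ± 0.17 (edgeR, adjusted p = 0.000112), but -0.30 (edgeR, adjusted p = 0.142) when libraries were scaled by their totals, with adjusted p-values down to 1.95e-06 over 15 alternatives.

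**Figure D2:**
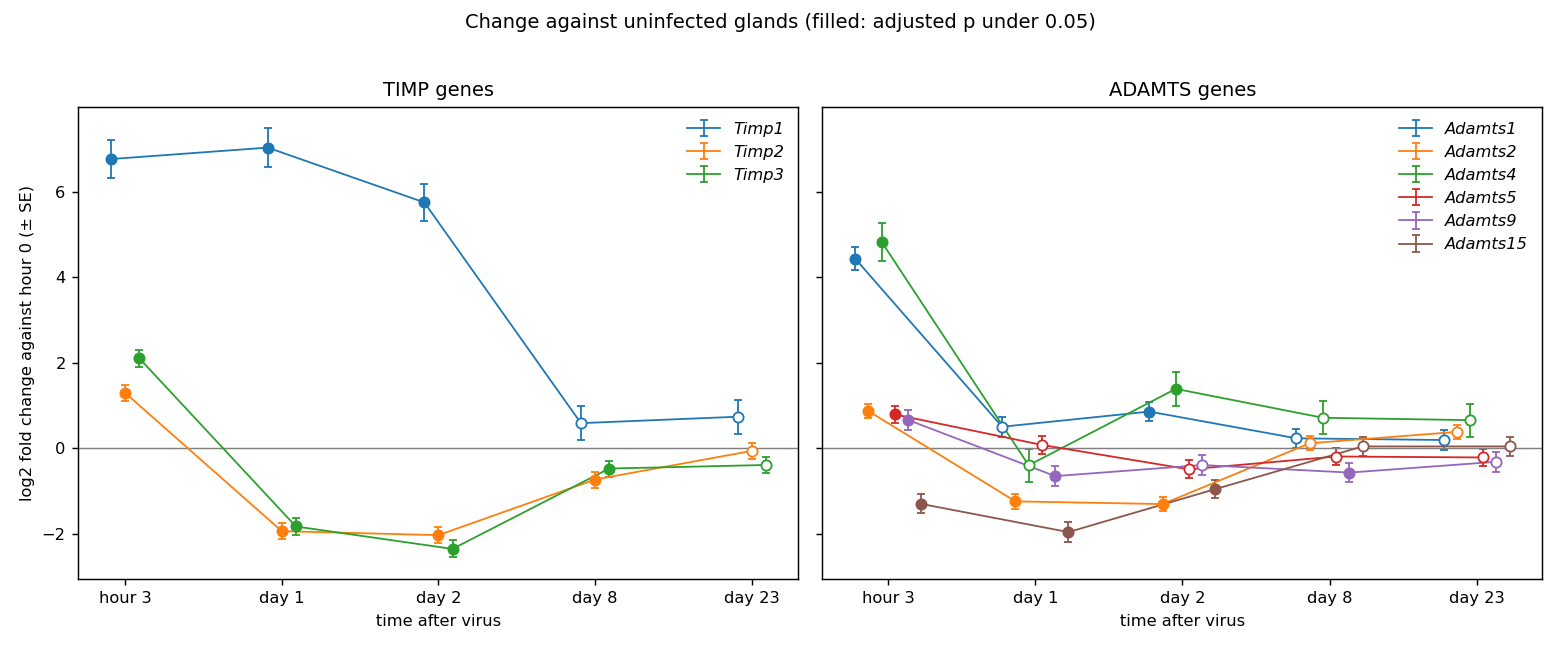
Log2 fold change against hour 0 (y axis, bars 1 SE) at each later time (x axis, not to scale), for 3 TIMP genes on the left and 6 ADAMTS genes on the right, with filled points where the edgeR adjusted p is under 0.05. Timp4 is left out because it had no count in 2 groups. Timp1 stays near 6 to 7 to day 2, Adamts1 and Adamts4 drop from above 4 at hour 3 to near 0 on day 1, and the hour 3 rises of Adamts2, Adamts5 and Adamts9 turn negative when libraries are scaled by their totals alone.

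The order of the levels over time placed hour 3 first for 7 of the 10 genes with TMM scaling, day 1 first for Timp1, day 2 for Timp4 and day 23 for Adamts15. The libraries of neighbouring groups in that order overlapped in 3 of 5 pairs for Timp1, Timp3 and Adamts15, in 2 for Timp2 and Adamts2, in 4 for Adamts1, Adamts4, Adamts5 and Adamts9, and in all 5 for Timp4. For Timp1 the overlapping neighbours were day 1 with hour 3, day 23 with day 8, and day 8 with hour 0. For Adamts1 the overlapping run reached from day 2 over day 1, day 8 and day 23 to hour 0, so only hour 3 stood clear. The highest group mean was 132 times the lowest for Timp1, 37.4 times for Adamts4, 22.0 times for Timp3, 21.7 times for Adamts1, 10.0 times for Timp2, 4.52 times for Adamts2 and 4.01 times for Adamts15.

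Levels of different genes were compared per kb of exon. The 4 TIMP genes summed to 291 ± 37.1 CPM per kb at hour 0, 1596 ± 173 at hour 3, 1027 ± 284 on day 1, 459 ± 111 on day 2, 189 ± 28.6 on day 8 and 272 ± 50.3 on day 23 (SD, n = 3 each). The 6 ADAMTS genes summed to 189 ± 13.6 CPM per kb at hour 0, 2169 ± 367 at hour 3, 182 ± 24.5 on day 1, 233 ± 40.8 on day 2, 206 ± 43.0 on day 8 and 210.3 ± 70.4 on day 23. The ADAMTS sum stood apart at hour 3, whereas every library of hour 3, day 1 and day 2 lay above every other library in its TIMP sum. With the longest transcript as length, day 2 replicate 17 (374.5 CPM per kb) lay below hour 0 replicate 10 (387.6 CPM per kb). The ratio of the ADAMTS to the TIMP sum was 0.655 at hour 0, 1.36 at hour 3, 0.183 on day 1, 0.538 on day 2, 1.10 on day 8 and 0.787 on day 23. The 3 day 1 libraries, at 0.152 to 0.219, were the lowest of the 18. These sums and ratios are descriptions and were not tested, and they are of RNA and not of protein or activity.

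The make-up of the inhibitor pool turned over. Timp2 made up 77.0% of the TIMP sum at hour 0, 34.8% at hour 3, 5.89% on day 1, 12.1% on day 2, 71.5% on day 8 and 79.2% on day 23. Timp1 made up 2.52%, 49.2%, 92.4%, 85.2%, 5.82% and 4.12% at the same times, and Timp3 20.4%, 16.0%, 1.68%, 2.56%, 22.7% and 16.7%. Thus on days 1 and 2 nearly all TIMP RNA per kb came from the gene that had been the least of the 3 in uninfected glands. Among the proteases, Adamts1 made up 72.8% of the sum at hour 3, against 38.5% at hour 0, and Adamts4 made up 20.4% at hour 3, against 8.24% at hour 0. Adamts5 made up 20.5% of the sum at hour 0, 3.12% at hour 3 and 22.4% on day 1, and Adamts15 11.7%, 0.434% and 3.22%.

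**Figure D3:**
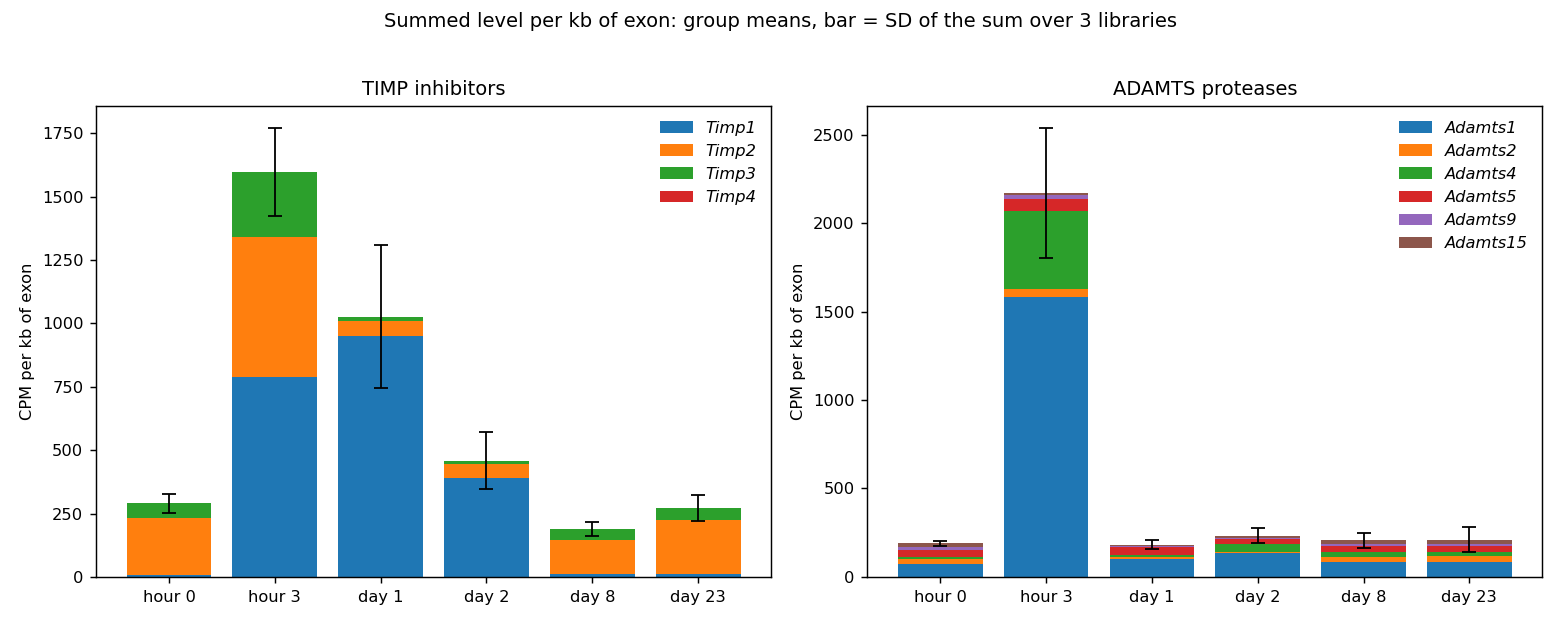
Summed CPM per kb of exon (y axis, linear, starting at 0) of the TIMP genes on the left and the ADAMTS genes on the right in each group (x axis), stacked by gene from group means, with 1 SD of the sum over 3 libraries as bars. Timp1 fills most of the TIMP column on days 1 and 2, and the ADAMTS column stands at 2169 at hour 3 against 182 to 233 at the other times.

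At hour 3 against hour 0, 8 of the 10 genes rose and 2 fell with TMM scaling, where 60.0% of all genes tested were called (16.9% higher and 43.1% lower), but 4 rose and 2 fell when libraries were scaled by their totals. The 4 that rose under both scalings were Timp1, Timp3, Adamts1 and Adamts4. The median log2 difference of the 10 genes was 1.09, against -1.41 over all genes. The all-gene values depend on the filter. With at least 5 CPM required in 3 libraries, 14147 genes were tested. At hour 3, 65.9% of these were called, and 43.3% of the calls were higher. The median over these genes was not taken. Scaling by library totals moved the median of all genes by -1.16, and with it 7.09% of called genes were higher, against 28.1% with TMM.

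On day 1, within the set that holds hour 0, 1 of the 10 genes rose (Timp1) and 5 fell (Timp2, Timp3, Adamts2, Adamts9 and Adamts15), where 22.5% of all genes were called (9.67% higher and 12.8% lower). The median log2 difference was -0.87 for the 10 genes and -0.41 over all genes. On day 2, also within that set, Timp1, Adamts1 and Adamts4 rose and Timp2, Timp3, Adamts2 and Adamts15 fell, where 14.8% of all genes were called (5.12% higher and 9.63% lower), and the medians were -0.44 and 0.29. Higher genes made up 34.7% of the day 2 calls with TMM, 52.7% with DESeq2's size factors and 66.7% with library totals, which moved the median of all genes by 0.21 and 0.37. Between day 2 and day 1, Adamts4 and Adamts15 were higher and Timp1, Timp3 and Adamts5 lower on day 2, where 23.2% of all genes were called (12.0% higher and 11.2% lower). The Timp3 and Adamts5 differences, of -0.52 ± 0.19 and -0.57 ± 0.21, each held in 5 of 15 alternatives. Of all calls between these days, 51.8% were higher on day 2 with TMM, 71.0% with DESeq2's size factors and 77.9% with library totals.

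By day 8 none of the 10 genes was higher than at hour 0 and Timp2, Timp3 and Adamts9 were lower, where 43.9% of all genes were called (11.2% higher and 32.7% lower), and the medians were -0.07 for the 10 genes and -0.68 over all genes. With the filter of 5 CPM in 3 libraries, 34.3% of 14147 genes were called on day 8, and 43.4% of the calls were higher. The direction of the day 8 calls of the 10 genes depends on the filter. With no filter on low counts, which moved the median of all genes by 0.22, 3 genes were called higher and 1, Timp2, lower. The higher ones were Timp1 (log2 0.81, edgeR, adjusted p = 0.00145), Adamts1 (0.45, edgeR, adjusted p = 0.0341) and Adamts4 (0.93, edgeR, adjusted p = 1.30e-05). The Timp3 and Adamts9 calls were then lost (edgeR, adjusted p = 0.278 and 0.171). On day 23 Timp4 was the only call, where 34.0% of all genes were called (8.51% higher and 25.4% lower), and the medians were -0.01 and -0.53. With no filter, Timp1 (log2 0.82, edgeR, adjusted p = 0.00235) and Adamts4 (0.73, edgeR, adjusted p = 0.00157) were also called higher on day 23. With the filter of 5 CPM, 23.4% of the genes tested were called on day 23, and 41.2% of the calls were higher. Library totals moved the median of all genes by -0.39 on day 8 and -0.44 on day 23, and the share of calls that were higher to 10.3% and 6.05%, against 25.5% and 25.1% with TMM. Without day 8 replicate 3, hour 0 replicate 10 or hour 0 replicate 11, 1 gene was called on day 8.

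Within the set of replicates 1 to 9, 9 of the 10 genes were called between each later time and hour 3. Timp4 had no count at hour 3 or on day 23, and its day 8 difference from hour 3 was not called (edgeR, adjusted p = 0.141). On day 8 against hour 3, Timp1, Timp2, Timp3, Adamts1, Adamts2, Adamts4, Adamts5 and Adamts9 fell and Adamts15 rose, with the sign of Adamts2 turning under scaling by library totals. Of all genes, 30.7% were called there (16.5% higher and 14.1% lower). Each of these 9 was also called on day 23 against hour 3, where 30.0% of all genes were called (15.7% higher and 14.3% lower). The medians were -1.63 and -1.18 for the 10 genes and 0.00 over all genes in both, and the 2 comparisons share the hour 3 libraries. The falls of Timp1, Timp2, Timp3, Adamts1 and Adamts4 were called under each scaling, and those of Adamts5 and Adamts9 were lost with library totals. The Adamts2 differences were then 0.0231 and 0.25, against -0.75 ± 0.17 and -0.49 ± 0.17 with TMM. The Adamts2 call on day 23 held in 11 of 16 alternatives. Of all calls, 53.9% and 52.3% were higher with TMM, and 81.9% and 80.0% with library totals, which moved the medians of all genes by 0.76 and 0.70. Between day 23 and day 8, Timp2 was higher on day 23 by 0.67 ± 0.19 (edgeR, adjusted p = 0.0309), a call that held in 10 of 16 alternatives (adjusted p between 0.00259 and 0.221), where 5.32% of all genes were called (2.25% higher and 3.08% lower).

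**Figure D4:**
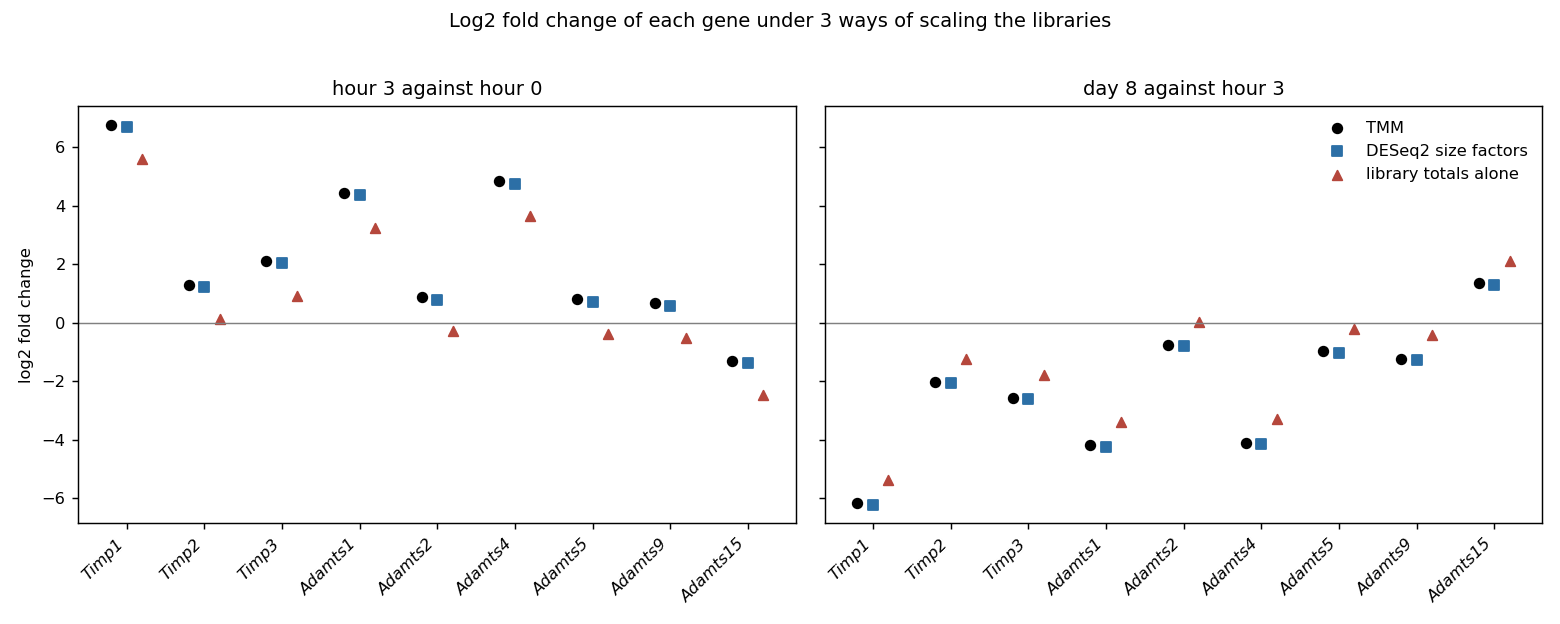
Log2 fold change (y axis) of 9 genes (x axis) at hour 3 against hour 0 on the left and on day 8 against hour 3 on the right, from edgeR fits with TMM, DESeq2's size factors or library totals alone. The TMM and DESeq2 points lie close together, and with library totals the hour 3 values are lower, which places Adamts2, Adamts5 and Adamts9 under 0 and Timp2 near 0, while Timp1, Timp3, Adamts1 and Adamts4 stay above it.

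The other genes of the system were taken as 7 lists with 70 genes, all of which passed the filter. Their counts at hour 3 depend on the scaling and are given with TMM and with library totals, while with TMM, DESeq2's size factors and library totals their day 1 counts differed by at most 1 gene in each direction. Of 12 matrix substrates, 7 rose and 4 fell at hour 3 (1 and 5 with library totals), and 1 rose and 6 fell on day 1, with TMM medians of 1.16 and -0.87, against -1.41 and -0.41 over all genes. Among all genes tested, 60.0% were called at hour 3, or 76.3% with library totals, and 22.5% on day 1. Vcan, which encodes versican, a proteoglycan cut by several of these ADAMTS enzymes, averaged 1870 ± 151 CPM at hour 3 and 1152 ± 208 CPM on day 1, against 226 ± 25.2 CPM at hour 0 (SD, n = 3 each). It rose by 3.05 ± 0.20 at hour 3 (edgeR, adjusted p = 4.32e-13), by 2.35 ± 0.19 on day 1 (edgeR, adjusted p = 1.15e-10) and by 0.83 ± 0.19 on day 2 (edgeR, adjusted p = 0.00172), in log2. Fmod, which encodes the collagen-binding fibromodulin, averaged 2.04 ± 1.10 CPM on day 1, against 30.4 ± 6.52 CPM at hour 0, a log2 difference of -3.88 ± 0.33 (edgeR, adjusted p = 2.68e-10).

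Of 16 metalloproteinases that TIMPs inhibit, 8 rose and 4 fell at hour 3 (4 and 6 with library totals), 5 rose and 4 fell on day 1, and 4 rose and 3 fell on day 2 (7 and 1 with library totals). Among all genes tested, 60.0% were called at hour 3, 22.5% on day 1 and 14.8% on day 2. With library totals these shares were 76.3% at hour 3 and 13.9% on day 2. The TMM medians of the 16 genes were 0.90, -0.02 and 0.76, against -1.41, -0.41 and 0.29 over all genes. Mmp12, an elastase best known from macrophages, averaged 54.9 ± 20.3 CPM at hour 3, against 0.991 ± 0.315 CPM at hour 0 (log2 5.77 ± 0.62; edgeR, adjusted p = 8.46e-09). The 5 macrophage and monocyte markers, all detected, summed to 22.4 to 34.8 CPM at hour 3 and 12.1 to 18.9 CPM at hour 0. At hour 3, 4 of 5 neutrophil markers (Ly6g at 0) summed to 33.5 to 42.9 CPM, against 5.71 to 9.06 CPM for all 5 at hour 0. Their part was not tested. Mmp3, a stromelysin, averaged 3384 ± 1728 CPM on day 1, against 229 ± 32.6 CPM at hour 0 (log2 3.88 ± 0.32; edgeR, adjusted p = 1.27e-10). Mmp2, a gelatinase of resting stroma, averaged 447 ± 104.0 CPM on day 1, against 1095 ± 80.3 CPM at hour 0 (log2 -1.29 ± 0.19; edgeR, adjusted p = 5.70e-06).

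Of 13 other ADAMTS genes, 3 rose and 6 fell at hour 3 (1 and 9 with library totals), 3 rose and 5 fell on day 1, 2 rose and 3 fell on day 2 (3 and 2 with library totals), and none rose and 7 fell on day 8. Over all genes tested, 60.0% were called at hour 3, 22.5% on day 1, 14.8% on day 2 and 43.9% on day 8, with lower calls the more frequent at each. The hour 3 and day 8 counts of these 13 genes lie near those shares. Adamts8 averaged 74.6 ± 10.2 CPM at hour 3, against 5.95 ± 2.52 CPM at hour 0 (log2 3.64 ± 0.42; edgeR, adjusted p = 3.76e-08). Adamts6 averaged 27.8 ± 14.8 CPM on day 1 and 28.1 ± 0.473 CPM on day 2, against 3.82 ± 1.10 CPM at hour 0, with log2 differences of 2.85 ± 0.36 and 2.87 ± 0.36 (edgeR, adjusted p = 2.53e-07 and 4.81e-07). Adamts17 averaged 1.69 ± 0.417 CPM on day 1, against 41.0 ± 6.03 CPM at hour 0 (log2 -4.59 ± 0.27; edgeR, adjusted p = 1.54e-13). Of 6 ADAMTS-like genes, whose proteins lack the protease domain, 4 rose and 1 fell at hour 3 (0 and 2 with library totals), 1 rose and 4 fell on day 1, and none rose and 5 fell on day 8. Adamtsl3 averaged 9.52 ± 1.08 CPM on day 1, against 162 ± 16.1 CPM at hour 0 (log2 -4.09 ± 0.21; edgeR, adjusted p = 1.26e-14).

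Of 7 clearance receptors and membrane partners, 6 rose and 1 fell at hour 3 (2 and 2 with library totals), and 3 rose and 3 fell on day 1. Sdc4, a heparan sulphate proteoglycan of the cell surface, averaged 2997 ± 141 CPM at hour 3, against 102 ± 16.2 CPM at hour 0 (log2 4.88 ± 0.29; edgeR, adjusted p = 7.95e-14). Reck, a membrane-anchored inhibitor of MMPs, averaged 23.4 ± 2.58 CPM on day 1, against 117 ± 12.3 CPM at hour 0 (log2 -2.33 ± 0.20; edgeR, adjusted p = 1.59e-10). Of 8 procollagen genes and processing partners, 4 rose and 1 fell at hour 3 (0 and 4 with library totals) and none rose and 6 fell on day 1, and Pcolce2, an enhancer of procollagen C-proteinase, averaged 4.78 ± 2.20 CPM on day 1, against 40.2 ± 8.19 CPM at hour 0 (log2 -3.07 ± 0.37; edgeR, adjusted p = 1.48e-07). Of 8 ADAM sheddases, 3 rose and 2 fell at hour 3 (1 and 5 with library totals) and 1 rose and 2 fell on day 1. Among all genes tested, 60.0% were called at hour 3 (16.9% higher and 43.1% lower), or 76.3% with library totals. On day 1, 22.5% were called (9.67% higher and 12.8% lower). The hour 3 counts of the procollagen and sheddase lists with TMM lie near the share of all genes called. Adam9 averaged 412 ± 11.5 CPM at hour 3, against 96.7 ± 9.26 CPM at hour 0 (log2 2.09 ± 0.20; edgeR, adjusted p = 1.14e-09), and Adam19 averaged 31.9 ± 14.2 CPM on day 1, against 452 ± 18.6 CPM at hour 0 (log2 -3.82 ± 0.25; edgeR, adjusted p = 8.05e-13).

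Across the 18 libraries, and over 8863 genes with a mean of at least 10 CPM, the log2 CPM of Timp1 was most like that of Ifit3b, Ifit2 and Daxx (Pearson's r = 0.981, 0.979 and 0.973). Adamts1 was most like Kctd10, Nfkb1 and Kdm6b (r = 0.995, 0.993 and 0.990), and within replicates 10 to 18, which do not hold hour 3, these were 0.985, 0.822 and 0.858. Adamts4 was most like Mast4, Skil and Socs3 (r = 0.975, 0.959 and 0.956). Timp2 was most like Itgbl1, Fbln5 and Islr (r = 0.982, 0.982 and 0.981), Timp3 like Plau, Lrrc58 and Hspg2 (r = 0.982, 0.979 and 0.977) and Adamts2 like Fbln1, Col6a1 and Itgbl1 (r = 0.983, 0.978 and 0.973). Adamts15 was most like Gas1, Mtss1 and Maf (r = 0.947, 0.922 and 0.918), Adamts5 like Urgcp, Akt2 and Sec24d (r = 0.930, 0.926 and 0.926) and Adamts9 like Dennd2a, Glb1l and Dennd5a (r = 0.908, 0.897 and 0.890). Timp4, near background, was most like Mroh2a, Ttn and Sfi1 (r = 0.891, 0.888 and 0.871), and within replicates 1 to 9 these were -0.105, 0.304 and 0.142. These values describe likeness over libraries that share group, set and depth.

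Among the 10 genes themselves, Timp2 and Timp3 (r = 0.967), Timp2 and Adamts2 (r = 0.940) and Adamts1 and Adamts4 (r = 0.925) ran most closely together over the 18 libraries. Within replicates 10 to 18 these values were 0.975, 0.968 and 0.612, and within replicates 1 to 9, which hold hour 3, 0.933, 0.938 and 0.986. Timp1 and Adamts15 ran opposite to each other (r = -0.931 in all, -0.919 in replicates 10 to 18 and -0.945 in replicates 1 to 9). Timp1 and Timp2 gave r = -0.226 over all libraries, but -0.942 within replicates 10 to 18 and 0.861 within replicates 1 to 9, since hour 3, when both were high, falls in replicates 1 to 9 and days 1 and 2, when Timp1 was high and Timp2 low, in replicates 10 to 18.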

How the data were processed

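Stromal RNA was sequenced in 18 libraries. Gene counts are as deposited by the authors, 1 table of raw counts per library with 55401 Ensembl IDs. Per the submitters' processing notes, FastQC, STAR, Subread and DESeq2 were used with build mm10. The strand setting and the annotation release are not given in the sources used here. IDs were paired with symbols and exon lengths through GENCODE M21 (55141 of 55401 matched, the unmatched holding 0.0241% of counts). The 10 genes and the lists were chosen with earlier results of these data known.

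Counts were fitted in edgeR 4.0.16 (R 4.3.3) in 1 model of all 18 libraries with group as the only term, TMM scaling, filterByExpr (minimum count 10, minimum total 15) and Benjamini-Hochberg adjustment over 27525 genes per comparison. The script was tested on simulated data. CPM per kb uses the union of exons. Named genes are the 10 genes, the 3 most alike for each (Pearson's r of log2 CPM, prior count 2) and, per list and comparison, the largest rise and fall with at least 10 CPM in the higher group, of which a selection is printed. Replicates of a group differed by 3.80 to 90.2 times counting noise (chi-square per degree of freedom), so no pair agreed within counting noise. Alternatives were DESeq2 1.42.0, limma-voom 3.58.1, other scalings, filters and fits, subtraction of the receptor-gene rate, and leaving out libraries. Bounds on zero counts cover counting error only.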

Additional observations from a re-analysis of the deposited data

Results flagged for a closer look

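Opposite changes against hour 0, each called and with no overlap of libraries, drew attention to 4 genes. Timp2 was higher at hour 3 (log2 1.30) and lower on day 1 (-1.93), day 2 (-2.03) and day 8 (-0.73), though the hour 3 call was lost with scaling by library totals. Timp3 was higher at hour 3 (2.11) and lower on day 1 (-1.82), day 2 (-2.35) and day 8 (-0.47). The Timp3 call on day 8 held in 8 of 15 alternatives and was lost when any single library compared was left out. Adamts2 was higher at hour 3 (0.87), a sign that turns with scaling by library totals, and lower on day 1 (-1.24) and day 2 (-1.30). Adamts9 was higher at hour 3 (0.67), which turns likewise, and lower on day 8 (-0.57). These Adamts9 calls held in 9 of 15 alternatives at hour 3 and 10 of 15 on day 8. For day 8 and hour 3, which share a set of libraries, the difference itself was tested, and Timp2 (-2.03 ± 0.19), Timp3 (-2.58 ± 0.20) and Adamts9 (-1.23 ± 0.23) were lower on day 8 (edgeR, adjusted p = 1.13e-09, 1.55e-11 and 0.000102), though the Adamts9 call was lost with library totals (-0.44, edgeR, adjusted p = 0.199). The differences of day 1 and day 2 from hour 3 cross the sets of libraries and were not tested.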

How the results depend on the processing

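No paired analysis was possible because no replicate number is shared by 2 groups. Of the values for single genes under an alternative, 1260 kept their side of the threshold, 68 lost a call, 30 gained one and 6 reversed. A value counted as reversed where its sign changed and the main fit or the alternative called the gene. Changes of sign with neither called are among the 1260. With library totals the reversed values were -0.30 for Adamts2, -0.39 for Adamts5 and -0.52 for Adamts9 at hour 3 against hour 0, and 0.0231 and 0.25 for Adamts2 on day 8 and day 23 against hour 3. Timp1 on day 23 against day 8 lay between -1.18 (without day 23 replicate 8) and 0.59 (without day 23 replicate 7) when 1 library was left out. Counts of the 10 genes called moved as follows. With library totals the count was 6 at hour 3 (main 10), 5 on day 8 (main 3), 5 on day 23 (main 1), 3 for day 2 against day 1 (main 5) and 0 for day 23 against day 8 (main 1). In the same order, 76.3%, 48.2%, 42.2%, 20.9% and 5.09% of all genes were called with library totals. Day 23 against hour 0 gave 2 with DESeq2's size factors, limma-voom or DESeq2, 3 with no filter, and 0 with a filter of 5 CPM, after background subtraction, or with only the compared groups fitted. In the same order, 33.7%, 31.5%, 29.8%, 18.5%, 23.4%, 20.8% and 12.6% of all genes tested were called. Day 2 against day 1 gave 3 with DESeq2's size factors, the filter of 5 CPM or background subtraction, and 2 with DESeq2. The shares of all genes called were 21%, 38.5%, 19.9% and 22.8%. Day 23 against day 8 gave 0 with no filter or only the compared groups, where 4.13% and 4.81% of all genes were called. Leaving out 1 library gave 1 to 3 calls on day 8, 1 to 2 on day 23, 3 to 6 for day 2 against day 1 and 0 to 2 for day 23 against day 8. Of all genes tested, 23.3% to 40.9%, 13.2% to 30%, 11.6% to 24.8% and 1.92% to 5.44% were then called. With the longest transcript as length, the Timp1 share was 43.6% at hour 3, 91.1% on day 1 and 83.2% on day 2, and the Adamts1 share 34.0% at hour 0, 54.4% on day 1, 53.5% on day 2, 37.0% on day 8 and 34.9% on day 23. The cause was not tested. With no more than 25 counts a library, the difference of Timp4 from hour 0 was called under none of 13 alternatives on day 1 and none of 14 on day 2, and under 5 of 12 on day 8.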
